A study of Mus musculus with 12 samples.

Results

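Embryoid bodies of the Gcn5 floxed line 4_1 were compared between day 5 and day 3 of differentiation, with 3 samples on each day. The comparison covers every gene whose mean normalised read count reached 10 on either day, which took in 16494 of the 18269 genes listed. Embryoid bodies are aggregates in which embryonic stem cells leave pluripotency and form a mixture of early embryonic cell types. The series holds 12 samples in all and asks how loss of Gcn5, a histone acetyltransferase encoded by Kat2a, changes gene expression early in differentiation. Both groups used here are C57BL/6 and carry the genotype Gcn5 fx/fx, in which both copies of Kat2a are flanked by recombination sites. No Cre and no treatment is named for them, and the other 6 samples come from a Gcn5-/- line at the same days. All 6 floxed samples derive from 1 cell line. The labels list 3 samples per group while the series description mentions duplicates, and nothing says that the samples were separate cultures, so p-values measure only the spread between these samples, which may be technical.

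Pluripotent stem cells are held undifferentiated by a small set of transcription factors, among them Oct4 (Pou5f1), Sox2 and Nanog, and by Nodal signalling. When this network is released, cells that receive Nodal and Wnt signals form primitive streak, mesoderm and endoderm, while cells in which Nodal signalling drops form neural ectoderm. Wnt, FGF and retinoic acid signals then give neural cells their position along the body axis.

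Libraries were made from total RNA with a stranded kit. Each floxed library held between 23090915 and 29446068 recovered reads. Log2 values of libraries of the same day correlated across genes at r = 0.981 to 0.991; genes are not independent replicates. Day 3 replicate 3 and day 5 replicate 3 stood apart from the others of their day. Among genes with values of at least 50, day 3 replicate 3 lay more than 2-fold above both other day 3 libraries for 124 genes, against 1 and 18 for replicates 1 and 2. Day 5 replicate 3 did so for 286 genes, against 22 and 27. Each library was also placed along the day 3 to day 5 change of the genes that changed by at least 1 on the log2 scale with that library left out. Day 3 replicate 3 sat at a median of 21.9% of the way, while day 3 replicates 1 and 2 sat at -8.61% and -2.17%. The 3 day 5 libraries sat at 87.2%, 95.5% and 98.9%. For some of the results that lean on these libraries, values without them are given as well, but not for all. In bulk RNA, a change in the number of cells of a type cannot be told apart from a change in RNA per cell, and day cannot be told apart from the harvest it belongs to.

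Markers of several embryonic cell types were detected, as in a mixed aggregate. Pou5f1, Nanog, Zfp42 and Utf1, markers of pluripotent cells, were lower at day 5, and Sox2 was higher. Markers of definitive endoderm (Foxa2, Sox17, Cxcr4), of visceral and parietal endoderm (Afp, Ttr, Amn, Apoa1, Dab2 and, with a call lost without single libraries, Sox7), of mesoderm (Kdr, Pdgfra), of trophoblast (Krt7, Plac1) and of blood (Hbb-bh1, Hba-x) were all higher at day 5. The Plac1 change was 2.41, or 1.25 with a pseudocount of 10, and its call was lost with a pseudocount of 0.1 (adjusted p = 0.0822). Hba-x changed by 3.04, or by 0.97 and 5.32 with pseudocounts of 10 and 0.1. Among the markers that were higher, at least Afp, Kdr, Hbb-bh1 and Hba-x averaged below 10 at day 3. They entered the comparison only through day 5, so their direction was set by the filter. Of the neural markers Hes5 and Nes were higher, Pax6 passed the test narrowly and Sox1 did not pass it. Among neuron markers, Tubb3 and Dcx were higher. The neuron markers Stmn2 and Elavl3 and the streak markers T and Eomes did not pass the test. Nor did Tbx6 of mesoderm and Tal1 of blood. Mixl1 of the streak was lower (log2 change -0.98), a call lost without single libraries. Gsc, a streak and organizer gene, was higher (log2 change 1.38 ± 0.45, adjusted p = 0.0259), a call lost without day 3 replicate 1 or 2 (adjusted p = 0.0576 and 0.108) or day 5 replicate 1 or 3 (adjusted p = 0.0780 and 0.0642) and with DESeq2 (adjusted p = 0.0592). With a pseudocount of 10 the Gsc change was 0.72. Msgn1, Hand1, Elf5 and Gata1 were below the expression filter. The trophoblast label thus rests on Krt7 and Plac1, the mesoderm label on Kdr and Pdgfra and the blood label on Hbb-bh1 and Hba-x. Both blood markers had their direction set by the filter. The call of Nes was lost without both libraries numbered 3 (log2 change 0.63 (adjusted p = 0.050004)) and that of Sox7 without day 3 replicate 1 (adjusted p = 0.0686) or day 5 replicate 3 (adjusted p = 0.0601), and the one of Pax6 is given with the neural genes.

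Of the 16494 genes, 7010 changed between day 3 and day 5, which is 42.5% of those tested. Higher at day 5 were 3781 genes (22.9%) and lower were 3229 (19.6%). Samples of the 2 days did not overlap for 8925 genes (54.1%). The rises reached further than the falls. Among changed genes, 1676 rose and 1176 fell by at least 1 on the log2 scale, and 332 rose and 25 fell by at least 3. The median log2 change of all genes was 0.00. Every list of genes below is to be read against these background shares, and the shares of members called are drawn for 48 lists in the plot of lists. Where leaving out 1 library moved a list's count of 5 or more by over 1.5 times, the count without it is given with the list. Smaller counts moved by at most 3. Of all genes tested, 867 reached the filter only through day 5, and 566 of those rose, while 650 reached it only through day 3, and 294 of those fell. Such genes could enter only with a difference in that direction, so list counts that hold many of them lean the same way. Members that entered only through day 5 numbered 11 of 18 for forebrain and eye field, 8 of 26 for midbrain and hindbrain, 7 of 17 for endothelium and blood and 5 of 14 for Wnt ligands. They numbered 6 of 29 for Notch and proneural genes, 6 of 30 for visceral and parietal endoderm, 6 of 20 for the streak, 5 of 20 for neurons and 5 of 25 for BMP. For trophoblast and for microRNA hosts they were 4 of 13 each, and for neural crest 4 of 15. Surface ectoderm had 3 of 13, and paraxial mesoderm and fibroblast markers had 3 of 14 each.

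**Figure D1:**
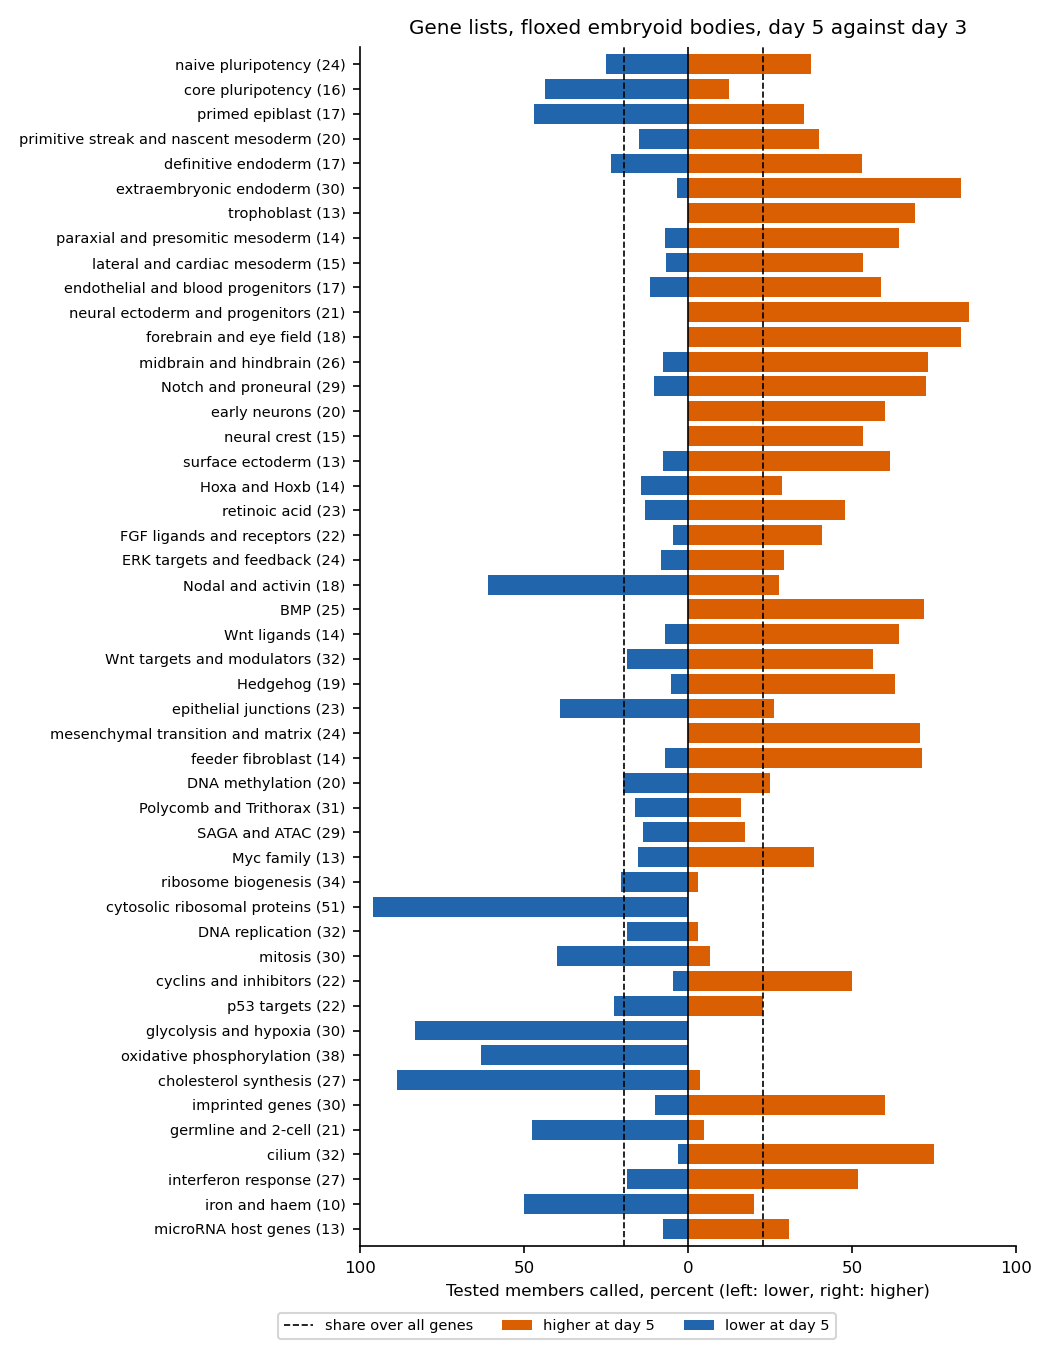
Share of the tested members of 48 gene lists that were higher (right, orange) or lower (left, blue) at day 5 than at day 3 in floxed embryoid bodies, in percent; the number of tested members stands beside each name, and dashed lines mark the shares over all 16494 genes (22.9% higher, 19.6% lower). Neural, BMP, extraembryonic endoderm and cilium lists reach past the line on the right, while glycolysis, cholesterol synthesis and ribosomal protein lists lie almost wholly to the left.

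Kat2a itself (ENSMUSG00000020918.14, chr11:100704746-100712465) had 2077, 2226 and 2379.8 normalised reads at day 3 and 2161, 2391 and 2071 at day 5, always listed here in the order of replicates 1, 2 and 3. The values of the 2 days overlapped, and the change did not pass the test (log2 change -0.01 ± 0.11, adjusted p = 0.937). Kat2b (ENSMUSG00000000708.14, chr17:53566861-53672720), which encodes the related acetyltransferase PCAF, had 1519.9, 1542 and 1232 and then 995, 675 and 883. Every day 5 sample lay below every day 3 sample (log2 change -0.76 ± 0.14, adjusted p = 0.000662). Of 29 tested subunits of SAGA and ATAC, the complexes that hold either enzyme, 5 rose and 4 fell, with a median log2 change of 0.00. Both shares lay below those over all genes. Without day 5 replicate 1 the rises numbered 3. The adaptor genes Tada1 (log2 change 0.81) and Tada3 (log2 change 0.42) rose, while the adaptor Tada2a (log2 change -0.35) and the WD-repeat gene Wdr5 (log2 change -0.28) fell. Tada1 overlaps Pogk on the opposite strand, and the strand setting of the counting is not given in the sources used here.

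Core pluripotency genes fell more often than they rose, and Sox2 and Lin28b were the risers. Of 16 genes shared by naive and primed pluripotent cells, 7 fell and 2 rose (median log2 change -0.30). Pou5f1 (ENSMUSG00000024406.16, chr17:35506018-35510772), the gene for Oct4, had 13732, 13382 and 8566 normalised reads at day 3 and 4417, 2490.3 and 4433 at day 5. The day 3 values all lay above the day 5 values, with replicate 3 the lowest of day 3 and replicate 2 the lowest of day 5 (log2 change -1.67 ± 0.26, adjusted p = 0.000237). L1td1, an RNA-binding protein gene of pluripotent cells, went from 8399, 9028 and 7049 to 2657, 1382 and 2673. The same libraries, day 3 replicate 3 and day 5 replicate 2, were lowest within their days (log2 change -1.92 ± 0.28, adjusted p = 0.000164). The zinc finger gene Zscan10 (log2 change -1.07) and the telomere and replication timing factor Rif1 (log2 change -0.54) fell too. Sox2 (ENSMUSG00000074637.7, chr3:34650405-34652461), which is kept in neural progenitors, went the other way, with 2442, 2156 and 2279 at day 3 and 3366, 3149.8 and 3591 at day 5 (log2 change 0.56 ± 0.07, adjusted p = 8.85e-05). Its values in the 2 days did not overlap. Lin28b, which blocks maturation of let-7 microRNAs, rose as well (log2 change 0.62, adjusted p = 0.00101).

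The naive pluripotency genes split into risers and fallers. Of 24 tested, 9 rose and 6 fell, with a median of 0.30. Nanog (ENSMUSG00000012396.12, chr6:122707489-122714633) stood at 5622, 4032 and 4963 at day 3 and at 1812, 1433 and 1962 at day 5. All day 5 samples were below all day 3 samples (log2 change -1.49 ± 0.28, adjusted p = 0.000974). Zfp42 (Rex1), a classical marker of naive cells, fell from 682, 675 and 574 to 427, 306 and 375 (log2 change -0.81 ± 0.15, adjusted p = 0.000851). Dppa4, which encodes a chromatin protein of pluripotent and germ cells, fell from 1779, 1603 and 1135 to 769, 443 and 732 (log2 change -1.23 ± 0.19, adjusted p = 0.000287). Its relative Dppa2 (log2 change -1.42) and the RNA-binding gene Dppa5a (log2 change -1.51) fell as well. Without day 5 replicate 2 the Dppa2 change was -0.88 (adjusted p = 0.0373).

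Klf4, a Krüppel-like factor of the naive network, rose from 80.3, 72.9 and 79.8 to 263, 240.5 and 187. The 3 day 5 values lay at more than 2 times the highest day 3 value (log2 change 1.54 ± 0.21, adjusted p = 0.000105). Nr5a2, an orphan nuclear receptor that acts upstream of Oct4, rose from 103, 89 and 143 to 467, 299 and 393 (log2 change 1.79 ± 0.22, adjusted p = 4.20e-05). Prdm14, a repressor needed for naive pluripotency and germ cells, rose from 29, 23.6 and 23.6 to 106, 93 and 93.4 (log2 change 1.90 ± 0.34, adjusted p = 0.000660). Values of Lifr, the receptor for leukaemia inhibitory factor, were 474, 431 and 569 and then 1333, 1074 and 1284 (log2 change 1.33 ± 0.13, adjusted p = 1.06e-05). None of these 4 genes had overlapping days. Tfcp2l1 (log2 change 1.40), Nr0b1 (log2 change 1.66), Tcl1 (log2 change 2.69) and the threonine dehydrogenase gene Tdh (log2 change 1.65) rose too. Esrrb, another nuclear receptor of naive cells, had 639, 754 and 551 and 1354, 985 and 1227. That change passed the test only narrowly (log2 change 0.87 ± 0.32, adjusted p = 0.0438), and the call was lost without day 3 replicate 1, 2 or 3 (adjusted p = 0.0995, 0.0554 and 0.114) or day 5 replicate 1 or 3 (adjusted p = 0.122 and 0.0917). With DESeq2 the adjusted p was 0.0513, and 0.0508 after upper-quartile scaling. Klf4, Nr5a2, Prdm14 and Lifr kept their calls without each single library.

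**Figure D2:**
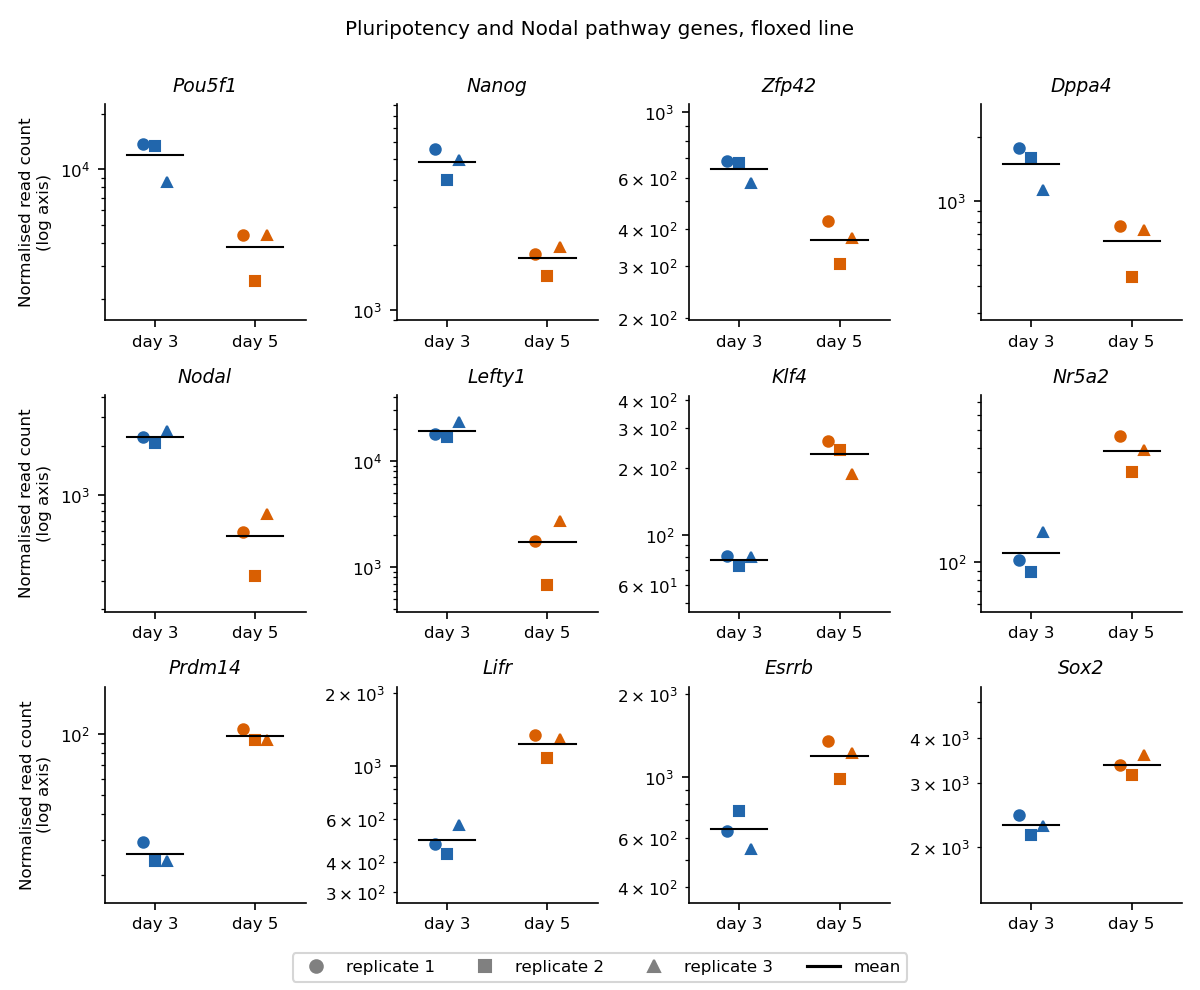
Normalised read counts (log axis) of 12 pluripotency and Nodal pathway genes in the 3 day 3 samples and the 3 day 5 samples of the floxed line; symbols mark replicates 1, 2 and 3 and bars the group means. Pou5f1, Nanog, Zfp42, Dppa4, Nodal and Lefty1 lie lower at day 5 in every sample, and Klf4, Nr5a2, Prdm14, Lifr and Sox2 lie higher.

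The promoter of Nanog is shown because the best known composite site of the Oct4 and Sox2 proteins lies there, and both its factors and Nanog itself are measured here. The window runs from 250 bases before to 50 bases after the start site, from RefSeq on GRCm38.p6, the sequence of mm10 (chr6:122707239-122707538, plus strand). Capitals mark the match to TTTGCAT, any base, then ACAATG.

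Nanog promoter: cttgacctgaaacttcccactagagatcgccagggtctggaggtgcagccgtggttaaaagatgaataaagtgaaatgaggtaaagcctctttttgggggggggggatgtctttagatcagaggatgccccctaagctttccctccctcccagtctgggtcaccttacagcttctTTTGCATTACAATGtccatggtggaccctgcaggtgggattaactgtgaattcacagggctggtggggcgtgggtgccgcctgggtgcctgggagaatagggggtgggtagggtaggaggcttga

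The match starts 75 bases before the start site on the strand of the gene. Both strands of 32851 promoter windows of this length were searched, and 2 of them (0.00609%) held this word. Of the 15 naive pluripotency genes with a window, 1 held it. A match is a description of the letters and shows no binding.

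MicroRNA genes of pluripotent cells gave few reads, and Mir291b, Mir292 and Mir293 of the miR-290 cluster fell. Total RNA libraries of this kind count primary transcripts and precursors at such loci and not the mature microRNA. Of 37 microRNA genes tested, 2 rose and 8 fell, with a median of -0.52. The share that fell was near that over all genes. The cluster on chromosome 7 is the main microRNA locus of mouse embryonic stem cells, and several of its products share a seed, the bases 2 to 8 that pair with targets. The mature forms of 6 members are printed from RefSeq (GRCm38.p6) with the seed in capitals, to show which of them share it.

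miR-290a-3p: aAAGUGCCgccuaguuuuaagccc
miR-291a-3p: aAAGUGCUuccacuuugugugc
miR-291b-3p: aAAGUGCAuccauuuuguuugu
miR-293-3p: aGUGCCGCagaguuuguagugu
miR-294-3p: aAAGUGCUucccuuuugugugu
miR-295-3p: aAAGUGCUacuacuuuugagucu

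The seed AAGUGCU is the same in miR-291a-3p, miR-294-3p and miR-295-3p. Mir293 had 76.5, 90.1 and 58 normalised reads at day 3 and 27.8, 34.4 and 45.4 at day 5, without overlap (log2 change -1.05 ± 0.29, adjusted p = 0.0120). Its call was lost without day 3 replicate 2 (adjusted p = 0.0556) or day 5 replicate 1 (adjusted p = 0.050015). Mir291b (log2 change -0.96 ± 0.34, adjusted p = 0.0352) lost its call without day 3 replicate 2 (adjusted p = 0.174) or day 5 replicate 1 or 2 (adjusted p = 0.0726 and 0.147) and Mir292 (log2 change -1.02 ± 0.35, adjusted p = 0.0337) without day 3 replicate 1 or 2 (adjusted p = 0.128 and 0.134) or day 5 replicate 1 or 2 (adjusted p = 0.0955 and 0.0803). Mir290a (44.5, 56.8 and 37.2, then 21.5, 18.4 and 29.7) and Mir295 (22.3, 23.6 and 16.3, then 11.9, 11.7 and 12.2) were lower in every day 5 sample without passing the test (adjusted p = 0.183 and 0.189). At the other end, the host transcript of miR-124, Mir124-2hg, rose from 0.968, 3.22 and 10.9 to 185, 244 and 911 (log2 change 6.23 ± 0.77, adjusted p = 4.52e-05). miR-124 is abundant in neurons. Day 5 replicate 3, which was also high in other neuronal genes, had the highest value. Of 13 host transcripts of microRNAs 4 rose and 1 fell. Of the 13, 4 entered only through day 5, and 3 of those rose.

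Genes of the post-implantation epiblast moved in both directions. Of 17 tested, 6 rose and 8 fell (median -0.47). The de novo DNA methyltransferase gene Dnmt3b (ENSMUSG00000027478.15, chr2:153649450-153687730) fell from 24194, 27913 and 19399 to 10705, 8035 and 10729 (log2 change -1.28 ± 0.16, adjusted p = 4.14e-05). Pou3f1 (Oct6), an epiblast and early neural factor, fell from 815, 918 and 724 to 395, 300.0 and 493 (log2 change -1.07 ± 0.17, adjusted p = 0.000242), and the chemokine gene Cxcl12 fell from 1225, 1143 and 814 to 159, 234 and 208 (log2 change -2.40 ± 0.19, adjusted p = 2.42e-06). None of the 3 overlapped between days. Otx2, which is used both in the epiblast and later in the forebrain and midbrain, rose from 375, 305 and 191 to 734, 525 and 613 (log2 change 1.14 ± 0.29, adjusted p = 0.00617). Fgf5, the marker most used for primed cells, had 228, 241 and 188 at day 3 and 262, 135 and 275 at day 5, which overlapped (adjusted p = 0.947). Of 20 genes that write, read or erase DNA methylation, 5 rose and 4 fell, shares near those over all genes. Besides Dnmt3b, Dnmt3a fell (log2 change -0.47), while the dioxygenase gene Tet3 rose (log2 change 1.47). Tet1, the related enzyme of stem cells, went from 6619, 5979.9 and 6075 to 4118, 3393 and 3545 (log2 change -0.76 ± 0.25, adjusted p = 0.0278). The Tet1 call was lost without day 3 replicate 1 or 2 (adjusted p = 0.0838 and 0.0556) or day 5 replicate 2 or 3 (adjusted p = 0.0799 and 0.0637) and with DESeq2 (adjusted p = 0.0590).

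Nodal signalling genes fell at day 5, the ligand and its inhibitors among them. Of 18 tested, 11 fell and 5 rose, with a median of -0.80. The ligand gene Nodal (ENSMUSG00000037171.6, chr10:61417972-61425338) had 2271, 2097 and 2458 normalised reads at day 3 and 594, 322 and 773 at day 5 (log2 change -2.10 ± 0.36, adjusted p = 0.000555). Lefty1 (ENSMUSG00000038793.8, chr1:180935022-180938400), a secreted Nodal inhibitor that Nodal itself induces, fell from 17694, 16554 and 22968 to 1751, 682 and 2741. Its day 5 mean was 11.1-fold below its day 3 mean (log2 change -3.67 ± 0.58, adjusted p = 0.000289). Lefty2 fell from 3357, 4325 and 4900.1 to 1160.0, 543 and 1818 (log2 change -1.98 ± 0.47, adjusted p = 0.00442). In all 3 genes, day 5 replicate 2 was lowest and no day 5 value reached a day 3 value.

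Foxh1, the DNA-binding partner of the Smad proteins in this pathway, fell from 1871, 2044 and 1717 to 652, 539.6 and 521 (log2 change -1.72 ± 0.11, adjusted p = 6.95e-07). The genes that rose were the activin antagonist Fst (log2 change 2.66), the effector Smad3 (log2 change 1.12), the receptors Acvr2a (log2 change 0.81) and Acvr2b, and Smad2. The last pair changed by 0.49 and 0.29, and the calls were lost without day 3 replicate 1 or 2 (adjusted p = 0.149 and 0.177) or day 5 replicate 2 or 3 (adjusted p = 0.139 and 0.10005) for Acvr2b and without day 3 replicate 1 (adjusted p = 0.0781) or day 5 replicate 1 or 2 (adjusted p = 0.0613 and 0.0507) for Smad2. With edgeR the adjusted p of Acvr2b was 0.0622, and 0.0537 after upper-quartile scaling. The samples of the 2 days overlapped for Acvr2b. Without day 3 replicate 1 or without day 5 replicate 2, 3 genes of the list rose.

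BMP genes moved together in the other direction. Of 25 ligands, antagonists, receptors and targets tested, 18 rose and 0 fell (median 1.63). Bmp2 (ENSMUSG00000027358.6, chr2:133552159-133562885) rose from 6.78, 15 and 18.1 to 125, 147 and 157 (log2 change 3.42 ± 0.30, adjusted p = 3.70e-06) and Bmp4 (ENSMUSG00000021835.14, chr14:46383520-46390669) from 20.3, 19.3 and 21.8 to 105, 73.7 and 55.9 (log2 change 1.84 ± 0.34, adjusted p = 0.000902). Every day 5 value of both ligands was above every day 3 value. The Id genes, which are direct targets of BMP Smads and inhibit proneural factors, rose as well. Id1 went from 20.3, 24.7 and 59 to 625, 798 and 485 (log2 change 4.28 ± 0.40, adjusted p = 6.41e-06) and Id3 from 63.9, 116 and 132 to 2068, 2331 and 1434 (log2 change 4.25 ± 0.35, adjusted p = 2.68e-06). For Id2 the values were 153, 109 and 380.0 and 1561, 2019 and 1616 (log2 change 3.21 ± 0.34, adjusted p = 1.45e-05). The homeobox target Msx2 rose from 2.9, 8.58 and 8.16 to 128, 175 and 185 (log2 change 4.53 ± 0.35, adjusted p = 1.69e-06).

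Most of the tested Wnt ligand genes rose at day 5. Of 14 tested, 9 rose and 1 fell. Of the 14, 5 entered only through day 5 and all 5 rose. Wnt3a and Wnt1 averaged below 10 at day 3, so their direction was set by the filter. Wnt3a (ENSMUSG00000009900.7, chr11:59248033-59290752), a ligand of the tailbud and dorsal neural tube, had 0.968, 5.36 and 2.72 normalised reads at day 3 and 246, 428 and 424 at day 5 (log2 change 6.63 ± 0.39, adjusted p = 4.40e-07). Wnt1 (ENSMUSG00000022997.9, chr15:98789857-98793837), a ligand of the midbrain-hindbrain boundary, had 0, 0 and 0.907 and then 82, 168 and 61.1 (log2 change 6.27 ± 0.44, adjusted p = 1.03e-06). With a pseudocount of 10 the Wnt1 change was 3.35, since a log2 change from values near 0 depends on the pseudocount. Wnt7b rose from 8.71, 23.6 and 10.9 to 162, 187 and 922 (log2 change 4.43 ± 0.57, adjusted p = 6.33e-05), with day 5 replicate 3 far above the other 2. Wnt8a, a ligand of the epiblast and streak, fell from 503, 873 and 1486 to 46.9, 163 and 259 (log2 change -2.77 ± 0.53, adjusted p = 0.00109). Wnt3, the ligand that starts the streak, had 106, 154 and 155 and 67.6, 101 and 87.3 (adjusted p = 0.101).

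Among 32 targets, receptors and modulators of Wnt signalling, 18 rose and 6 fell. Axin2, the feedback inhibitor read out as a general Wnt target, rose from 462, 542 and 536 to 1372, 1553 and 1101 (log2 change 1.37 ± 0.15, adjusted p = 1.53e-05). Frzb (ENSMUSG00000027004.3, chr2:80411970-80447625), a secreted Wnt antagonist, rose from 0.968, 6.43 and 28.1 to 1443, 1161 and 722 (log2 change 7.15 ± 0.68, adjusted p = 7.37e-06), and the antagonist Sfrp2 from 1294, 1329.8 and 1248 to 6021, 4918 and 9047 (log2 change 2.32 ± 0.20, adjusted p = 3.79e-06). The receptors Fzd3 (log2 change 2.17) and Fzd1 (log2 change 1.54) rose, while Fzd5 (log2 change -0.55) and the R-spondin receptor gene Lgr4 (log2 change -0.99) fell. The nuclear effector Tcf7 fell from 1418, 1424 and 1326 to 756, 833 and 789 (log2 change -0.81 ± 0.07, adjusted p = 5.17e-06). Lef1, another effector of the same family, had 854, 813 and 612 and 545, 393 and 479 (log2 change -0.68 ± 0.20, adjusted p = 0.0162), a call lost without day 3 replicate 1 or 2 (adjusted p = 0.0704 and 0.0570) or day 5 replicate 2 (adjusted p = 0.0698). Without day 3 replicate 1 the number of the list that fell was 3.

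FGF ligands changed one by one. Of 22 ligands, receptors and co-receptors, 9 rose and 1 fell. Fgf15 (ENSMUSG00000031073.5, chr7:144896531-144900953), a ligand of the neural tube, rose from 165, 94.4 and 356 to 963, 1077 and 1577 (log2 change 2.73 ± 0.38, adjusted p = 0.000113), and Fgf3, a hindbrain ligand, from 16.5, 13.9 and 29.9 to 164, 144 and 132 (log2 change 2.87 ± 0.31, adjusted p = 1.62e-05). The receptor Fgfr2 (log2 change 1.06) and the membrane protein Flrt3, a partner of FGF receptors (log2 change 2.22), rose too, and Fgf11, an intracellular member of the family, fell (log2 change -1.89). Fgf4, the main FGF of pluripotent cells, had 2169, 1644 and 1133 at day 3 and 1032, 425 and 887 at day 5. All its day 5 values were lower, without passing the test (adjusted p = 0.0877). Fgf8 had 203, 209 and 674 and 389, 249 and 348, which overlapped, with day 3 replicate 3 the highest (adjusted p = 0.891).

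Genes that report ERK activity, the kinase downstream of FGF receptors, gave 7 rises and 2 falls among 24. The feedback inhibitor Spry1 rose from 405, 412 and 386 to 964, 752 and 947 (log2 change 1.14 ± 0.13, adjusted p = 2.13e-05) and Spry2 from 1558, 1317 and 1887 to 2801, 2303 and 2903 (log2 change 0.76 ± 0.13, adjusted p = 0.000424). The phosphatase Dusp4 (log2 change 2.10) and Phlda1 (log2 change 2.67) rose, and the immediate early gene Ier3 fell (log2 change -1.72). Dusp6, the phosphatase most specific to ERK, had 1802, 1832 and 1895 and 2967, 1840.1 and 3033, with day 5 replicate 2 among the day 3 values (log2 change 0.47 ± 0.15, adjusted p = 0.0247). The Dusp6 call was lost without day 3 replicate 1 or 2 (adjusted p = 0.0715 and 0.0612) or day 5 replicate 1 or 3 (adjusted p = 0.103 and 0.104). Spry4 and Etv4 did not pass the test (adjusted p = 0.708 and 0.892).

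Retinoic acid genes held the largest rise in a ranking of changed genes with a mean of at least 100 on the higher day. The ranking left out genes with overlapping days or clone-type names, such as Gm with digits or Rik. Retinoic acid is made by aldehyde dehydrogenases, broken down by the Cyp26 enzymes, carried in the cell by the Crabp proteins and read by nuclear receptors. Of 23 genes of this system, 11 rose and 3 fell (median 0.55). Of the 23, 3 entered only through day 5, and 2 of those rose. Cyp26b1 and Cyp26c1 averaged below 10 at day 3, so their direction was set by the filter. Cyp26b1 (ENSMUSG00000063415.12, chr6:84571414-84593908) had 6.78, 5.36 and 2.72 normalised reads at day 3 and 829, 1321 and 1502 at day 5 (log2 change 7.70 ± 0.30, adjusted p = 3.01e-08). Cyp26c1 went from 1.94, 2.14 and 9.98 to 96.3, 634 and 126 (log2 change 5.41 ± 0.79, adjusted p = 0.000158), with day 5 replicate 2 the highest. Cyp26a1 (ENSMUSG00000024987.5, chr19:37697798-37701536) went from 31.9, 52.5 and 195 to 289.6, 562 and 666 (log2 change 2.77 ± 0.55, adjusted p = 0.00136), with day 3 replicate 3 the highest of its day. Per kilobase of exon, the mean day 5 levels were 227 for Cyp26b1, 255 for Cyp26a1 and 163 for Cyp26c1, and the mean day 3 levels 0.925, 47 and 2.68. Cyp26a1 was thus the highest of the 3 enzymes at day 3 on this scale.

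The binding protein genes Crabp1 and Crabp2 rose. Crabp2 went from 852, 788 and 923 to 3144, 5443 and 6139 (log2 change 2.47 ± 0.27, adjusted p = 1.97e-05). Crabp1 had 144, 105 and 1989.8 and then 7699, 16454 and 15903 (log2 change 5.33 ± 0.87, adjusted p = 0.000360). In Crabp1, day 3 replicate 3 lay far above the other day 3 libraries and below every day 5 library. Without that library the Crabp1 change was 6.67 (adjusted p = 2.49e-06). Falls were found for Stra8, a target of retinoic acid in germ cells, from 723, 878 and 1349.5 to 96.3, 112 and 54.1 (log2 change -3.49 ± 0.32, adjusted p = 5.88e-06), the receptor Rarg (log2 change -1.24) and the reductase gene Dhrs3 (log2 change -1.93). The receptor Rarb, itself a classical target, had 94.9, 65.4 and 151 and 135, 106 and 162, and the days overlapped (adjusted p = 0.274).

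The promoters of Cyp26a1 and Rarb are printed side by side because both hold a retinoic acid response element, while Cyp26a1 rose and Rarb did not pass the test. The element searched was AGTTCA or GGTTCA, 5 bases of any kind, then AGTTCA, on both strands. Capitals mark the match (chr19:37697558-37697857, plus strand and chr14:16575427-16575726, minus strand, RefSeq, GRCm38.p6, each 5′ to 3′ on the strand of its gene).

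Cyp26a1 promoter: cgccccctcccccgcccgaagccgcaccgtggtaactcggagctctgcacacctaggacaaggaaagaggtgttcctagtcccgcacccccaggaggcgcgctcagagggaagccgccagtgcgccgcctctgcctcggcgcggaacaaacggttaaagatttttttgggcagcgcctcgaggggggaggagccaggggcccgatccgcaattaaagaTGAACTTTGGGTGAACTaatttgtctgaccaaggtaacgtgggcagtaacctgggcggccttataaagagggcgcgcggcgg
Rarb promoter: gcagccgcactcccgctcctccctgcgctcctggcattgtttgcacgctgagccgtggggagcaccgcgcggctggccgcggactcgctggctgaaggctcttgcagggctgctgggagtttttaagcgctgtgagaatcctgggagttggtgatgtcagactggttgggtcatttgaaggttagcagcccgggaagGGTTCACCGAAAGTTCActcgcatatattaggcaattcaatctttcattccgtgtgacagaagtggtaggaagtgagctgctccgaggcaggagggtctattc

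The match begins 32 bases before the start site in Cyp26a1, on the strand opposite to the gene, and 53 bases before it in Rarb, on the strand of the gene. The word occurred in 0.0304% of all windows and in 2 of 18 retinoic acid genes with a window.

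Hox genes, which set position along the body axis in the order of their place in the cluster, gave 4 rises and 2 falls among 14 tested members of the A and B clusters. Hoxb2 (ENSMUSG00000075588.6, chr11:96350525-96354012), a hindbrain gene, rose from 119, 64.3 and 372 to 516, 792 and 1259.7 (log2 change 2.49 ± 0.60, adjusted p = 0.00490) and Hoxa2 from 25.2, 10.7 and 114 to 203, 271 and 424 (log2 change 3.13 ± 0.73, adjusted p = 0.00390). In both genes day 3 replicate 3 was the highest of day 3, yet below every day 5 value. Hoxb1 had 31, 19.3 and 107 and 11.9, 83.8 and 33.2 and overlapped (adjusted p = 0.778). Hoxa5 fell (log2 change -2.84 ± 0.82, adjusted p = 0.0143), but the call was lost without day 3 replicate 3 (adjusted p = 0.0587) or day 5 replicate 1 or 2 (adjusted p = 0.0560 and 0.0562). Hoxb8 rose (log2 change 2.82 ± 0.96, adjusted p = 0.0316), a call lost without day 3 replicate 1 or 2 (adjusted p = 0.0722 and 0.133) or day 5 replicate 3 (adjusted p = 0.134) and with a pseudocount of 0.1 (adjusted p = 0.101). With a pseudocount of 10 the Hoxb8 change was 1.29. The summed level of the list ran from 442 to 1933 at day 3 and from 1100.4 to 3303 at day 5, with replicate 3 the highest on both days. Rises numbered 2 without day 3 replicate 1 or 2 or without day 5 replicate 3. Only 2 genes of the C and D clusters passed the expression filter.

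Neural genes rose together. Of 21 neural ectoderm and progenitor genes, 18 rose and 0 fell, with a median of 2.15. Pou3f2 (Brn2, ENSMUSG00000095139.2, chr4:22482780-22488366), a POU factor of neural progenitors, rose from 16.5, 8.58 and 50.8 to 751, 1021 and 2425 (log2 change 5.91 ± 0.62, adjusted p = 1.40e-05). Zbtb16, a zinc finger gene that marks early neural stem cells, rose from 13.6, 18.2 and 103 to 1295, 1431 and 1323 (log2 change 5.45 ± 0.53, adjusted p = 8.05e-06). The brain fatty acid binding protein gene Fabp7 rose from 21.3, 22.5 and 41.7 to 529, 600.0 and 2159.7 (log2 change 4.97 ± 0.48, adjusted p = 7.94e-06). In all 3 genes day 3 replicate 3 was the highest library of day 3 and still below all day 5 libraries.

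Pax6 had 480.2, 174 and 742 at day 3 and 771, 765 and 1536 at day 5, and its call (log2 change 1.29 ± 0.49, adjusted p = 0.0486) was close to the threshold. With all libraries kept it was lost with edgeR (adjusted p = 0.0704), DESeq2 (0.101), TMM scaling (0.0504), upper-quartile scaling (0.0533) and a pseudocount of 0.1 (0.0520). It was also lost without day 3 replicate 1 or 2 (adjusted p = 0.0724 and 0.223) or day 5 replicate 1, 2 or 3 (adjusted p = 0.0583, 0.0589 and 0.169). Sox1, the earliest marker of neural ectoderm, was already at 1807, 827 and 2786 at day 3 and stood at 2377, 2918 and 2574 at day 5 (adjusted p = 0.129).

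Forebrain and eye-field factors rose in 15 of 18 cases and fell in 0 (median 2.66, or 2.61 with Six3 at its lower bound). Of the 18, 11 entered only through day 5 and all 11 rose, so their direction was set by the filter. The nuclear receptor genes Nr2f1 (ENSMUSG00000069171.13, chr13:78188973-78199757) and Nr2f2 rose from 12.6, 4.29 and 28.1 to 989.8, 1336 and 1314 (log2 change 6.56 ± 0.44, adjusted p = 7.44e-07) and from 18.4, 15 and 40.8 to 707, 899.9 and 712 (log2 change 5.03 ± 0.53, adjusted p = 1.37e-05). The eye-field factor Six3 was at 0 in every day 3 library and at 23.9, 7.54 and 7.86 at day 5, which is at least 4.44-fold higher against a floor of 3 reads per library. Rax, another eye-field factor, had 12.6, 8.58 and 18.1 and 7.96, 5.87 and 9.6 (adjusted p = 0.298).

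Midbrain, hindbrain and dorsal neural tube factors rose in 19 of 26 cases and fell in 2 (median 2.33). Of the 26, 8 entered only through day 5 and all 8 rose, so their direction was set by the filter. Zic1 (ENSMUSG00000032368.14, chr9:91358058-91365810), a zinc finger factor of the dorsal neural tube, rose from 8.71, 7.51 and 42.6 to 689.8, 918 and 1365 (log2 change 5.96 ± 0.50, adjusted p = 3.04e-06); it overlaps Zic4 on the opposite strand. Pax3, a dorsal neural tube and somite factor, rose from 14.5, 13.9 and 46.3 to 607, 1023 and 1259.7 (log2 change 5.38 ± 0.51, adjusted p = 7.37e-06). En1, a factor of the midbrain-hindbrain boundary, rose from 0, 2.14 and 4.53 to 130.5, 289.9 and 59.4 (log2 change 5.67 ± 0.68, adjusted p = 3.64e-05, or 3.56 with a pseudocount of 10). The falls were Zic2 (log2 change -0.55) and Zic5 (log2 change -1.26), which pluripotent and epiblast cells also express. En2 had 47.4, 26.8 and 43.5 at day 3 and 72.4, 49.4 and 339.6 at day 5. The En2 call (log2 change 1.46 ± 0.55, adjusted p = 0.0489) was lost without day 3 replicate 1, 2 or 3 (adjusted p = 0.0742, 0.155 and 0.0690) or day 5 replicate 3 (adjusted p = 0.196). The adjusted p of En2 was 0.0518 with a pseudocount of 0.1 and 0.0522 after upper-quartile scaling. Gbx2 did not pass the test (adjusted p = 0.0785).

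**Figure D3:**
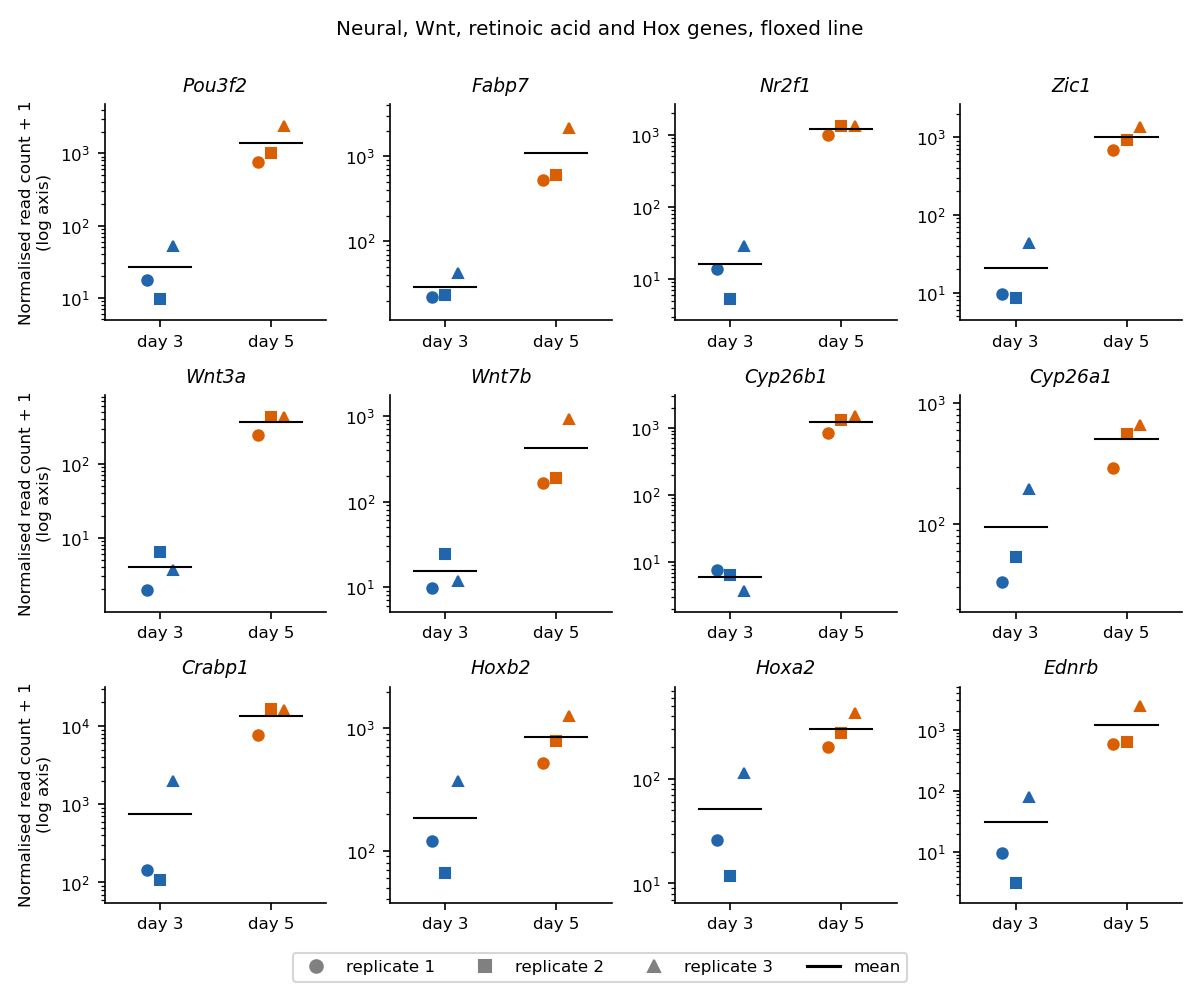
Normalised read counts plus 1 (log axis) of 12 neural, Wnt, retinoic acid and Hox genes in the 3 day 3 and the 3 day 5 samples of the floxed line; symbols mark replicates 1, 2 and 3 and bars the group means. Day 3 replicate 3 is the highest of day 3 in Pou3f2, Fabp7, Nr2f1, Zic1, Cyp26a1, Crabp1, Hoxb2, Hoxa2 and Ednrb, and every day 5 sample of the 12 genes lies above every day 3 sample.

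Notch pathway and proneural genes rose in 21 of 29 cases and fell in 3 (median 2.05). The proneural factor Neurog2 (ENSMUSG00000027967.8, chr3:127633135-127635631) rose from 0, 1.07 and 0.907 to 11.1, 19.3 and 87.3 (log2 change 4.14 ± 0.67, adjusted p = 0.000350, or 1.88 with a pseudocount of 10). The Notch ligand Jag1 (log2 change 2.05) and the glycosyltransferase Lfng, which modifies Notch (log2 change 2.64), rose. The receptor Notch3 fell from 9536, 9743 and 15304 to 4071, 4509.7 and 4545 (log2 change -1.36 ± 0.21, adjusted p = 0.000227) and the ligand Jag2 from 925, 779.7 and 922 to 309.5, 301 and 352 (log2 change -1.45 ± 0.14, adjusted p = 6.77e-06). Hes6, a Hes factor that promotes neurogenesis, fell too (log2 change -1.25). Hes1 had 1037, 874 and 1153 and 1033, 937 and 1167 and did not pass the test (adjusted p = 0.862).

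Of 20 genes of newly formed neurons, 12 rose and 0 fell. Tubb3, the neuronal tubulin, rose from 625, 618 and 598 to 2691, 1677 and 5380.1 (log2 change 2.24 ± 0.30, adjusted p = 7.73e-05) and the microtubule protein gene Dcx from 45.5, 48.3 and 49 to 274, 180.2 and 1004 (log2 change 2.92 ± 0.48, adjusted p = 0.000386). In both, day 5 replicate 3 was by far the highest. Without it the changes were 1.79 (adjusted p = 2.76e-05) and 2.20 (adjusted p = 0.000213), and the list then had 9 rises and 3 falls. The summed level of the list was 5692, 5362 and 5573 at day 3 and 8395, 6372 and 17429.7 at day 5. Among 15 neural crest genes 8 rose and 0 fell. The endothelin receptor gene Ednrb rose from 8.71, 2.14 and 79.8 to 592, 632 and 2408 (log2 change 6.16 ± 1.04, adjusted p = 0.000459), and Sox9 from 8.71, 18.2 and 48.1 to 120.1, 119 and 147 (log2 change 2.62 ± 0.44, adjusted p = 0.000412). Sox10, a defining crest factor, stayed at or below 12.7 in every sample (adjusted p = 0.707). Tfap2a rose (log2 change 1.64 ± 0.51, adjusted p = 0.0206), a call lost without day 3 replicate 1 or 3 (adjusted p = 0.0883 and 0.0611) or day 5 replicate 3 (adjusted p = 0.0771), and changed by 0.85 with a pseudocount of 10. Surface ectoderm genes rose in 8 of 13 cases and fell in 1, with the epidermal factor Trp63 (log2 change 3.06, or 1.23 with a pseudocount of 10) and the keratin Krt19 (log2 change 1.98) among the rises.

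Hedgehog pathway genes rose in 12 of 19 cases and fell in 1. The ligand gene Shh (ENSMUSG00000002633.4, chr5:28456815-28467256) was at 0 in all day 3 libraries and at 18.3, 54.5 and 8.73 at day 5, at least 9.22-fold higher against the same floor. The co-receptors Boc (log2 change 2.99) and Gas1 (log2 change 2.09) and the effector Gli3 (log2 change 1.39) rose, as did Nkx6-1, a target in the ventral neural tube, from 8.71, 8.58 and 31.7 to 124, 225 and 148 (log2 change 3.48 ± 0.49, adjusted p = 0.000118). Ptch1, receptor and general target of the pathway, had 3058, 2259.6 and 3015 and 2428, 3229 and 3082 and overlapped (adjusted p = 0.807). The single fall, Nkx2-2 (-1.70, or -0.72 with a pseudocount of 10), was lost without day 3 replicate 1 or 3 (adjusted p = 0.0616 and 0.0517) or day 5 replicate 3 (adjusted p = 0.0691). Genes of the primary cilium, the organelle through which Hedgehog acts, rose in 24 of 32 cases and fell in 1, by small amounts (median 0.53). Examples were the dynein heavy chain gene Dync2h1, from 1101, 1228 and 1262 to 2069, 2519.7 and 2218 (log2 change 0.92 ± 0.09, adjusted p = 9.08e-06), and the transport gene Ift140 (log2 change 1.12). The ciliary transcription factor genes Rfx4 (log2 change 3.88) and Rfx3 (log2 change 1.45) rose, and Tulp3 fell (log2 change -0.59).

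Primitive streak and mesoderm genes did not move as a block. Of 20 streak genes 8 rose and 3 fell. T (brachyury, ENSMUSG00000062327.10, chr17:8434423-8442496) had 75.5, 98.7 and 67.1 at day 3 and 43, 333 and 88.2 at day 5. Only day 5 replicate 2 was high, and the days overlapped (adjusted p = 0.584). Eomes had 75.5, 87.9 and 107 and 78, 61.2 and 251, with day 5 replicate 3 the highest (adjusted p = 0.739). Mixl1 was lower (log2 change -0.98 ± 0.30, adjusted p = 0.0181), a call lost without day 3 replicate 3 (adjusted p = 0.0584) or day 5 replicate 1 or 2 (adjusted p = 0.0783 and 0.0534), and changed by -0.65 with a pseudocount of 10. The receptor gene Pdgfra, of paraxial mesoderm and parietal endoderm, rose from 62.9, 85.8 and 149 to 266, 606 and 1020.5 (log2 change 2.55 ± 0.41, adjusted p = 0.000317).

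Later mesoderm genes rose from low values. Of 14 paraxial genes 9 rose and 1 fell, though Pax3, Wnt3a and Lfng of that list are neural genes as well. Tbx6, a defining factor of presomitic mesoderm, stayed at or below 12.6 (adjusted p = 0.505), and Tcf15 fell (log2 change -1.75). Lateral and cardiac genes rose in 8 of 15 cases and fell in 1. Acta2, a smooth muscle actin, rose from 46.5, 102 and 35.4 to 2424, 625 and 429 (log2 change 3.95 ± 0.51, adjusted p = 6.80e-05), with day 5 replicate 1 the highest. Of 17 endothelial and blood genes 10 rose and 2 fell. Kdr (ENSMUSG00000062960.10, chr5:75932827-75978458), the VEGF receptor of their common progenitor, rose from 2.9, 6.43 and 8.16 to 224, 122 and 217 (log2 change 4.82 ± 0.46, adjusted p = 7.26e-06). The embryonic globin gene Hbb-bh1 rose from 0.968, 0 and 0.907 to 31, 19.3 and 34 (log2 change 4.19 ± 0.44, adjusted p = 1.37e-05, or 1.82 with a pseudocount of 10). Etv2 and Tal1, factors of the same lineage, did not pass the test (adjusted p = 0.268 and 0.169). Of the 17 endothelial and blood genes, 7 entered only through day 5 and all 7 rose, so their direction was set by the filter. Kdr and Hbb-bh1 were of this kind. With a filter of a mean of at least 50, 3 of the list rose and 2 fell (median -0.47). The summed level of the list was 1324, 1238 and 1300 at day 3 and 1295, 1048 and 1646 at day 5.

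Visceral and parietal endoderm genes rose together. Of 30 tested, 25 rose and 1 fell (median 2.06). Afp (ENSMUSG00000054932.6, chr5:90490737-90508907), alpha-fetoprotein, rose from 2.9, 12.9 and 3.63 to 78.8, 367 and 551 (log2 change 5.33 ± 0.69, adjusted p = 6.47e-05), and Ttr, transthyretin, from 1.94, 13.9 and 19.95 to 43.8, 158 and 289.8 (log2 change 3.71 ± 0.73, adjusted p = 0.00129). The basement membrane genes Lama1, from 481, 724 and 1041 to 3849, 6915 and 8631 (log2 change 3.10 ± 0.30, adjusted p = 8.05e-06), and Col4a2 (log2 change 2.42) rose too. In all of Afp, Ttr and Lama1, day 5 replicate 3 was the highest and day 5 replicate 1 the lowest of its day. The summed level of the list was 48299, 53787 and 58185 at day 3 and 77659.9, 90449.5 and 103673 at day 5. Apoe, which stem cells express strongly, fell (log2 change -0.76).

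Among 17 definitive endoderm genes 9 rose and 4 fell (23.5%, beside 19.6% over all genes). The summed level of the list was 29414.7, 38648.5 and 27966.8 at day 3 and 35581.3, 33938.7 and 22531.4 at day 5, which overlapped. The endoderm genes given here were all among those that rose. Sox17 (ENSMUSG00000025902.13, chr1:4490931-4497354) rose from 11.6, 16.1 and 21.8 to 95.5, 189 and 282 (log2 change 3.35 ± 0.35, adjusted p = 1.32e-05) and Foxa2 from 21.3, 49.3 and 45.3 to 165, 286 and 236 (log2 change 2.59 ± 0.29, adjusted p = 2.35e-05). Both are also expressed in visceral endoderm. The chemokine receptor gene Cxcr4 rose from 58.1, 35.4 and 97.9 to 703, 722 and 1172 (log2 change 3.82 ± 0.35, adjusted p = 5.80e-06). Gata4, of endoderm and heart, rose (log2 change 1.10 ± 0.33, adjusted p = 0.0181), a call lost without day 3 replicate 1 or 2 (adjusted p = 0.0563 and 0.0527) or day 5 replicate 3 (adjusted p = 0.0676). Trophoblast genes rose in 9 of 13 cases, among them the imprinted gene Peg10 (log2 change 1.93) and the keratin Krt7 (log2 change 1.97). Cdx2, a defining trophoblast factor that the tailbud also uses, rose from 3.87, 4.29 and 8.16 to 9.55, 37.7 and 44.5 (log2 change 2.10 ± 0.54, adjusted p = 0.00728, or 1.27 with a pseudocount of 10).

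Cadherin genes changed in both directions. Cdh2, N-cadherin, rose from 511, 387 and 912 to 4619, 3645 and 5765 (log2 change 3.02 ± 0.25, adjusted p = 2.68e-06), Cdh11 from 13.6, 11.8 and 18.1 to 951, 545 and 1033 (log2 change 5.73 ± 0.28, adjusted p = 1.65e-07) and Cdh6 from 7.74, 7.51 and 57.1 to 979, 687 and 737 (log2 change 5.60 ± 0.57, adjusted p = 1.13e-05). Epcam, an epithelial adhesion gene of stem cells, fell from 6865, 8012 and 6157 to 2376, 2377 and 2182 (log2 change -1.59 ± 0.08, adjusted p = 2.30e-07). Cdh1, E-cadherin, had 8896, 11813 and 7267 at day 3 and 5912, 5195 and 3584 at day 5, without overlap (log2 change -0.93 ± 0.29, adjusted p = 0.0206). The Cdh1 call was lost without day 3 replicate 1 or 2 (adjusted p = 0.0503 and 0.0882) or day 5 replicate 3 (adjusted p = 0.0823). Of 23 junction genes 6 rose and 9 fell.

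Of 24 mesenchymal and matrix genes 17 rose and 0 fell. Vim, vimentin, rose from 2144, 1567 and 1483 to 4511, 3304 and 10754 (log2 change 1.67 ± 0.32, adjusted p = 0.00114), which was 1.07 (adjusted p = 0.00149) without both libraries numbered 3. The collagen gene Col1a2 rose from 73.6, 81.5 and 103 to 2469, 1529 and 854 (log2 change 4.10 ± 0.38, adjusted p = 5.64e-06). The transition factor Snai1 had 18.4, 32.2 and 29.9 and 44.6, 37.7 and 31.4 (adjusted p = 0.192). Markers of fibroblasts, cells that can remain from feeder layers, shared several of these genes. Of 14 such markers 10 rose and 1 fell, with a summed level of 2538, 3239.8 and 1842 at day 3 and 9952, 4718 and 3058 at day 5. Thy1, a surface marker of fibroblasts, fell from 123, 164 and 54.4 to 27.1, 39.4 and 22.7 (log2 change -1.80 ± 0.48, adjusted p = 0.00892), and Dcn did not pass the test (adjusted p = 0.632). Their part in the matrix genes was not tested.

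Imprinted genes, active on the maternal or the paternal chromosome alone, rose in 18 of 30 cases and fell in 3 (median 1.24). H19 (ENSMUSG00000000031.15, chr7:142575529-142578143), a long noncoding RNA, rose from 262, 346 and 278 to 3336, 6081 and 3284 (log2 change 3.78 ± 0.47, adjusted p = 5.00e-05), and its neighbour Igf2 (ENSMUSG00000048583.16, chr7:142650766-142666816), a growth factor, from 118, 131 and 161 to 1434, 2519 and 929 (log2 change 3.46 ± 0.29, adjusted p = 2.68e-06). In both genes day 5 replicate 2 was the highest. Dlk1, a Notch-related membrane protein, rose from 44.5, 24.7 and 50.8 to 407, 321 and 366 (log2 change 3.21 ± 0.25, adjusted p = 2.02e-06). Plagl1, a zinc finger regulator of several imprinted genes, rose from 141, 149 and 320.1 to 1858, 1466 and 1730.2 (log2 change 3.14 ± 0.27, adjusted p = 3.40e-06). Mest rose from 3774, 3233 and 7309 to 35184, 24643 and 27855 (log2 change 2.69 ± 0.23, adjusted p = 3.79e-06). Phlda2, a growth inhibitor of the placenta, fell from 880.0, 856 and 683 to 278, 369 and 155 (log2 change -1.67 ± 0.23, adjusted p = 0.000116). Meg3, expressed from the other parental copy of the Dlk1 domain, had 506, 439.7 and 286 and 113, 247 and 107, lower in every day 5 sample without passing the test (adjusted p = 0.115).

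Glycolytic and hypoxia-inducible genes fell together. Of 30 tested, 25 fell and 0 rose (median -0.99). Aldoa (ENSMUSG00000030695.13, chr7:126795234-126800751), a glycolytic aldolase, fell from 65712, 66920.1 and 63211 to 20365, 26506 and 22737 (log2 change -1.50 ± 0.10, adjusted p = 1.03e-06); it overlaps Fam57b on the opposite strand. Eno1, enolase, fell from 49004, 50067 and 48313 to 22547, 25449.6 and 25041 (log2 change -1.01 ± 0.08, adjusted p = 1.60e-06) and Gpi1, glucose phosphate isomerase, from 27821, 25218 and 25519 to 10269, 11512 and 9858 (log2 change -1.31 ± 0.10, adjusted p = 1.91e-06). In these enzymes the 3 samples of a day lay close together and the days were far apart.

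Hypoxia-inducible genes outside the main path of glycolysis fell by different amounts. Adm (ENSMUSG00000030790.14, chr7:110627661-110629820), adrenomedullin, fell from 649, 439 and 286 to 30.2, 41.9 and 29.7 (log2 change -3.65 ± 0.27, adjusted p = 1.48e-06), and Aldoc from 999, 895 and 835 to 204, 232 and 211 (log2 change -2.07 ± 0.13, adjusted p = 5.64e-07). Slc2a1, the glucose transporter, fell from 18429, 14484 and 20790.3 to 12342, 12721 and 9977 (log2 change -0.61 ± 0.16, adjusted p = 0.00840), which was -0.38 (adjusted p = 0.104) without both libraries numbered 3. Vegfa had 1039.7, 667 and 636 and 405, 497 and 529 (log2 change -0.68 ± 0.23, adjusted p = 0.0314), and its call was lost without day 3 replicate 1 (adjusted p = 0.154) or day 5 replicate 1 or 2 (adjusted p = 0.107 and 0.0564). The summed level of the list was 502025, 482035 and 500618 at day 3 and 243889, 293367 and 265475 at day 5.

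**Figure D4:**
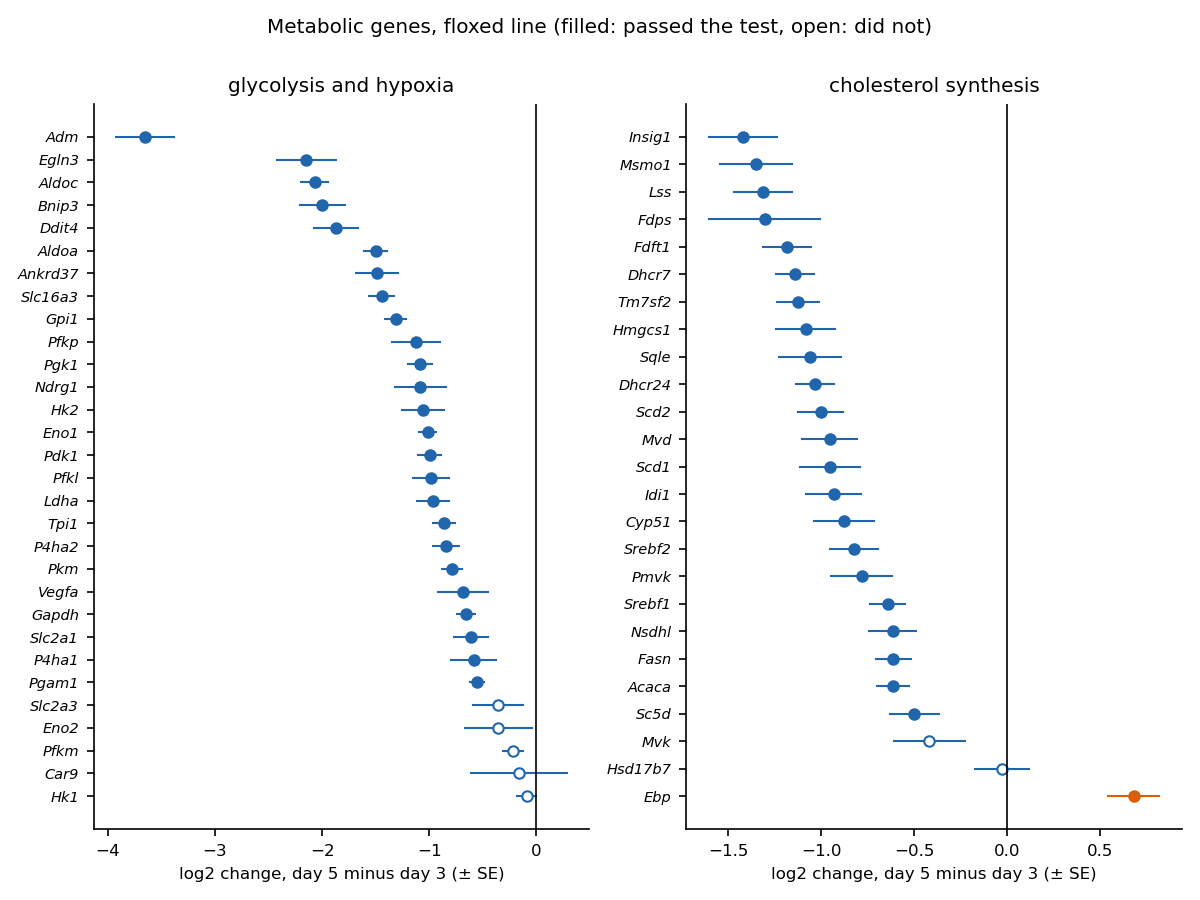
Log2 change from day 3 to day 5 (points) ± SE (lines) in floxed embryoid bodies for the 30 tested members of the glycolysis and hypoxia list (left) and 25 of the 27 of the cholesterol synthesis list (right); filled points passed the test and open points did not. Filled points lie left of 0 for 25 of 30 and 22 of 25 members drawn, and Ebp is the single filled point to the right.

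The promoter of the glycolytic gene Pgk1 is printed as an example from this list with the core word of the hypoxia response element, TACGTG or GACGTG on either strand (capitals, chrX:106186850-106187149, plus strand, RefSeq, GRCm38.p6). Pgk1 fell from 25312, 23970 and 25179.9 to 9961, 14205 and 11308 (log2 change -1.08 ± 0.11, adjusted p = 1.28e-05).

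Pgk1 promoter: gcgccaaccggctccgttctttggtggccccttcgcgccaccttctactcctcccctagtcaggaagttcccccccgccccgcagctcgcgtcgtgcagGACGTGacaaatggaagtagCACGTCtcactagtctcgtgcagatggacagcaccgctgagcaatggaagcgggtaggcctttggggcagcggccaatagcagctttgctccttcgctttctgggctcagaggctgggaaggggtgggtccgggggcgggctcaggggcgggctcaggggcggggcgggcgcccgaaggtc

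The word was found in 17 of 28 members of the list with a window and in 9.35% of all windows. It is short, and no binding was measured.

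Sterol and fatty acid synthesis genes fell in 24 of 27 cases and rose in 1 (median -0.96). Fdft1 (ENSMUSG00000021273.9, chr14:63145150-63179578), squalene synthase, fell from 4703, 5083 and 3424 to 2108, 1715 and 1927 (log2 change -1.18 ± 0.13, adjusted p = 1.97e-05). Lss, lanosterol synthase, fell from 4753, 5021 and 3273 to 1855, 1621 and 1689 (log2 change -1.31 ± 0.16, adjusted p = 3.65e-05), and Dhcr7, the reductase of the last step, from 1818, 1759.9 and 1566 to 806, 781 and 739 (log2 change -1.14 ± 0.10, adjusted p = 4.57e-06). In these 3 genes no day 5 value reached a day 3 value. The isomerase gene Ebp rose (log2 change 0.68). A word of the sterol response element (TCAC, any base, CCAC) stood in 1 of 19 members with a promoter window and in 1.24% of all windows.

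Genes of protein synthesis and respiration fell by small amounts. Of 51 ribosomal protein genes 49 fell and 0 rose, with a median of -0.37. Rplp1, of the ribosomal stalk, went from 36968, 38423 and 35216 to 26189, 25568 and 24617 (log2 change -0.53 ± 0.07, adjusted p = 6.86e-05). Nuclear genes of oxidative phosphorylation fell in 24 of 38 cases and rose in 0 (median -0.28), such as Cyc1, cytochrome c1 (log2 change -0.64), and Sdha (log2 change -0.31). Ribosome biogenesis genes fell in 7 of 34 cases and rose in 1, shares near or below the background. Without day 3 replicates 1 or 2 or day 5 replicates 2 or 3 the falls numbered 4. The iron storage gene Ftl1 (log2 change -1.22), the haem oxygenase gene Hmox1 (log2 change -1.24) and the transferrin receptor gene Tfrc (log2 change -0.78) fell, among 5 falls and 2 rises in 10 iron and haem genes.

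The cyclins that act in G1 changed in both directions. Ccnd2 (ENSMUSG00000000184.12, chr6:127125162-127152193), cyclin D2, rose from 272, 172 and 463 to 4562, 5052 and 7346 (log2 change 4.31 ± 0.30, adjusted p = 1.03e-06). Ccnd1, cyclin D1, rose from 3356, 3767 and 4421 to 5022, 4692 and 6491 (log2 change 0.48 ± 0.13, adjusted p = 0.00837), Ccnd3 rose (log2 change 0.92), and Ccne1, cyclin E1, fell from 3300.1, 3601 and 3351 to 2771, 2399.8 and 2582 (log2 change -0.40 ± 0.08, adjusted p = 0.00160). The inhibitor gene Cdkn1c, which is imprinted, rose from 493, 697 and 660.2 to 2357, 2324 and 2690.5 (log2 change 2.01 ± 0.26, adjusted p = 7.08e-05), and Cdkn1a (p21) did not pass the test (adjusted p = 0.709). Of 22 cyclins, kinases and inhibitors 11 rose and 1 fell. Mitosis genes fell in 12 of 30 cases and rose in 2 (median -0.08). Cdk1 (log2 change -0.30) and the checkpoint kinase Bub1 (log2 change -0.56) were among them. The falls numbered 7 without day 3 replicate 1 or without day 5 replicate 2. Replication genes gave 1 rise and 6 falls among 32, near or below the background shares, and the falls numbered 3 without day 3 replicate 1 or 2 or without day 5 replicate 2.

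Myc (ENSMUSG00000022346.14, chr15:61985391-61990374) rose from 176, 201 and 138 to 477, 389 and 261 (log2 change 1.10 ± 0.30, adjusted p = 0.00988) and Mycn from 1172, 1466 and 1404 to 2710.0, 2707 and 3149 (log2 change 1.09 ± 0.11, adjusted p = 1.34e-05). The related Mycl (log2 change 1.60) and the antagonists Mxd4 (log2 change 1.58) and Mxd1 (log2 change 0.93) rose as well, among 5 rises and 2 falls in 13. Of 22 genes that p53 induces, 5 rose and 5 fell, shares near those over all genes. The apoptosis genes Pmaip1 (log2 change -1.02) and Bax (log2 change -0.60) and the p53 ligase gene Mdm2 (log2 change -0.44) fell, Aen rose (log2 change 0.50), and Trp53 itself did not pass the test (adjusted p = 0.222). The rises of that list numbered 2 or 3 whichever single library was left out.

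Chromatin and germline genes gave smaller groups. Of 31 Polycomb and Trithorax genes 5 rose and 5 fell, shares below those over all genes. The PRC1 chromobox genes Cbx8, from 36.8, 30.0 and 43.5 to 141, 111 and 196 (log2 change 1.97 ± 0.28, adjusted p = 0.000140) and Cbx2 (log2 change 0.91) rose, while Cbx6 (log2 change -0.46) and the PRC2 subunit gene Suz12 (log2 change -0.39) fell. Ezh2, the PRC2 methyltransferase, did not pass the test (adjusted p = 0.0923). Germline and 2-cell genes fell in 10 of 21 cases and rose in 1. The meiosis genes Sycp3, from 685, 568 and 379 to 135, 83.8 and 148 (log2 change -2.14 ± 0.25, adjusted p = 2.92e-05), and Sycp1 (log2 change -2.11) and the helicase gene Ddx4 (log2 change -1.28) fell. Sycp3 overlaps Chpt1 on the opposite strand. Without day 3 replicate 1 or without day 3 replicate 3 the falls numbered 5.

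Interferon-inducible genes rose in 14 of 27 cases and fell in 5. The membrane protein gene Ifitm1, which early mesoderm also expresses, rose from 48.4, 31.1 and 49.9 to 338, 344 and 364 (log2 change 3.02 ± 0.23, adjusted p = 1.60e-06), and the factor Irf2 from 8.71, 5.36 and 12.7 to 56.5, 63.7 and 57.6 (log2 change 2.67 ± 0.31, adjusted p = 3.21e-05). The class I antigen gene H2-K1 fell from 1510.2, 1616 and 1271 to 659.6, 716 and 554 (log2 change -1.19 ± 0.11, adjusted p = 7.75e-06), as did Bst2 (log2 change -1.26) and the signal transducer Stat2 (log2 change -0.73). Irf1 had 1153, 1461 and 1485 and 887, 753 and 1147 (log2 change -0.57 ± 0.20, adjusted p = 0.0369), a call lost without day 3 replicate 2 or 3 (adjusted p = 0.106 and 0.0969) or day 5 replicate 1 or 2 (adjusted p = 0.0861 and 0.145).

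Changed genes with a mean of at least 100 on the higher day were ranked by log2 change. Genes with overlapping days or clone-type names were left out of the ranking. The 12 largest rises included Cyp26b1, Cp, Dbx1, Frzb, Wnt3a, Nr2f1, St18, Pax7, Sema3a, Wnt1 and Mir124-2hg. At least Cyp26b1, Cp, Dbx1, Wnt3a, Pax7, Wnt1 and Mir124-2hg averaged below 10 at day 3. They entered only through day 5, so their direction was set by the filter. Cp (ENSMUSG00000003617.16, chr3:19957054-20009145), ceruloplasmin, had 0.968, 0 and 0 at day 3 and 205, 162 and 294 at day 5 (log2 change 7.42 ± 0.36, adjusted p = 1.65e-07, or 4.44 with a pseudocount of 10) and overlaps Hps3 on the opposite strand. Dbx1, a homeobox gene of neural tube progenitors, rose from 0.968, 0 and 1.81 to 211, 147 and 595 (log2 change 7.23 ± 0.69, adjusted p = 7.03e-06, or 4.66 with a pseudocount of 10). Pax7, of the dorsal neural tube and crest, rose from 0, 2.14 and 9.98 to 146, 269 and 548 (log2 change 6.42 ± 0.79, adjusted p = 4.55e-05).

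The 12 largest falls were Ackr4, Fam43b, Ephx3, Tll1, Lefty1, Adm, Plk5, Galr2, Stra8, Rasd2, Sned1 and Ndufa4l2. Ackr4 (ENSMUSG00000079355.3, chr9:104084157-104126933), a scavenging chemokine receptor, fell from 2033, 1723 and 2517 to 147, 67.9 and 143 (log2 change -4.18 ± 0.33, adjusted p = 1.97e-06) and overlaps Acad11 on the opposite strand. Tll1, a tolloid-like protease that cleaves BMP antagonists, fell from 437, 374 and 382 to 29.4, 31.8 and 17.5 (log2 change -3.91 ± 0.31, adjusted p = 2.05e-06). Galr2, a galanin receptor, fell from 175, 211 and 156 to 13.5, 13.4 and 15.7 (log2 change -3.57 ± 0.32, adjusted p = 4.75e-06), and Ndufa4l2, a hypoxia-inducible mitochondrial gene, from 264, 213 and 233 to 24.7, 36.9 and 19.2 (log2 change -3.14 ± 0.25, adjusted p = 2.41e-06). No day 5 sample of these genes came near a day 3 sample.

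The same day comparison in the Gcn5-/- line shares no samples with this one. There 7388 of the same 16494 genes changed (44.8%). Of the genes changed in the floxed line 72.5% also changed in the null line, 5079 genes, and these were 68.7% of the genes changed there. Direction was the same for 5055 of them. The difference between the day changes itself passed the test for 81 genes (0.491%), 39 with a more positive change in the floxed line and 42 with a more negative one. With upper-quartile scaling the split was 30 and 55 instead, and with the DESeq2 test 511 genes passed. Grb10 (ENSMUSG00000020176.17, chr11:11930508-12038683), an imprinted adaptor of growth factor receptors, rose in the floxed line from 10255, 9649 and 13357 to 17999.9, 25136 and 23248 (log2 change 0.997). In the null line its change was -2.61 (adjusted p = 1.35e-06), and the difference was 3.61 ± 0.25 (adjusted p = 2.92e-05). Ccnd2 rose in both lines, by 4.31 in the floxed and 1.86 in the null line, with a difference of 2.45 ± 0.43 (adjusted p = 0.0345). For Sox2 the changes were 0.56 and -0.07, with a difference of 0.63 ± 0.11 (adjusted p = 0.0345). Each genotype is 1 line, so effects of genotype and of line cannot be told apart.

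**Figure D5:**
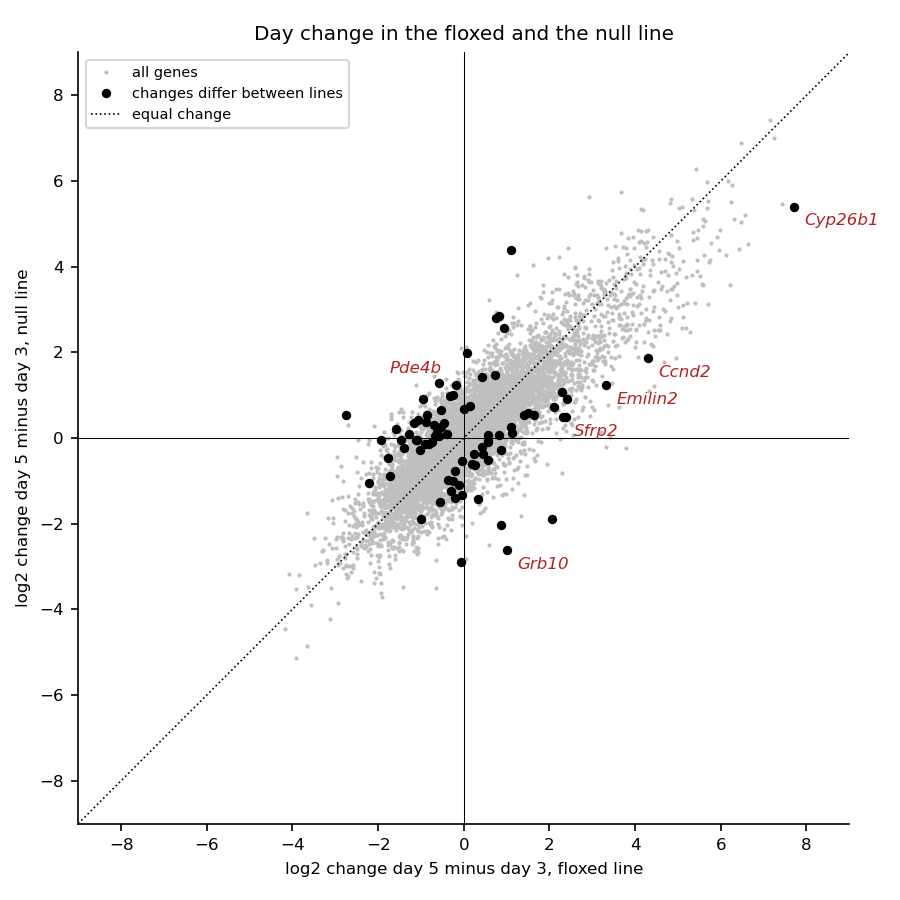
Log2 change from day 3 to day 5 in the floxed line (x axis) against that in the null line (y axis) for the 16494 genes; grey points are all genes, black points the 81 genes whose 2 changes differed, and 6 of these are named. Grb10 lies above 0 in the floxed line and below 0 in the null line, and Cyp26b1 and Ccnd2 rise in both and further in the floxed line.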

How the data were processed

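RNA from 12 samples of mouse embryoid bodies was sequenced, and the 6 floxed samples were grouped by day from their labels. The authors deposited a signal table of read counts divided by 1 size factor per sample. All nonzero values (100% within 0.01) were whole multiples of the value of 1 read, from which reads were recovered. Per the submitters' processing notes the tools were CASAVA 1.8.2, TopHat2 2.0.10, HTSeq 0.6.0 and DESeq 1.16.0, with build mm10. The filter behind the listed genes and the strand setting are not given in the sources used here. Symbols came from GENCODE M21 (18199 of 18269 IDs, 12740 with the same version), and exon lengths too.

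limma 3.58.1 (trend) was fitted in R 4.3.3 to log2(value + 1) of all 12 samples in 4 group means, for the 17000 genes that averaged 10 or more in some group. Fold changes are on that scale and understate low genes. p-values were two-sided and Benjamini-Hochberg adjusted over all genes fitted, and 0.05 was the threshold. edgeR 4.0.16 and DESeq2 1.42.0 on the recovered reads, other pseudocounts, filters and scalings, a replicate block and leaving out libraries were alternatives. The fit was tested on simulated data. No 2 libraries of a day agreed within sampling noise (chi-square per degree of freedom 11.3 to 29.5).

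The gene lists, the markers and the members were chosen with earlier results of these data known. Named genes were Kat2a and Kat2b, the defining genes of each list, up to 5 members per list with the smallest adjusted p and up to 3 of the opposite direction, the 12 largest rises and falls with a mean of at least 100 on the higher day, and the 6 genes that differed most between lines. The ranking of rises and falls left out genes with overlapping days or clone-type names. Beyond that rule the marker genes of the label check were named, and Acvr2b, Smad2, Crabp1, Cyp26c1, Dppa2, Dppa5a, Nr0b1, Tcl1, Tdh, Tfcp2l1, Pgk1, the microRNA genes and the genes of the closing observations were chosen after their values were seen. Some genes that the rule names are not reported here.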

Additional observations from a re-analysis of the deposited data

Results flagged for a closer look

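The day change differed between the floxed and the null line for 14 of the named genes, by the test of the difference itself (limma, Benjamini-Hochberg adjusted, given as floxed minus null on the log2 scale). Grb10 differed by 3.61, with 0.997 in the floxed and -2.61 in the null line. Etv4, an ERK target, differed by 2.81, Emilin2, a matrix glycoprotein, by 2.08, and Ccnd2 by 2.45. Cyp26b1 rose in both lines and differed by 2.30. Sfrp2 differed by 1.83, Spry1 by 1.03 and Sox2 by 0.63. Gldc, of glycine cleavage, changed by -0.11 in the floxed and -1.09 in the null line and differed by 0.98. More negative changes in the floxed line were found for the phosphodiesterase gene Pde4b (-1.41), the germ cell helicase gene Ddx4 (-1.38), Ly6e (-1.06), the phospholipase gene Pla2g16 (-0.998) and Trp53inp1 (-0.80). Adjusted p-values ran from 2.92e-05 to 0.0383. Line, genotype and harvest cannot be told apart in these differences.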

How the results depend on the processing

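The number of genes that changed from day 3 to day 5 was 6913 and 7054 with pseudocounts of 0.1 and 10, 7067 and 7003 with upper-quartile and TMM scaling, 7050 with edgeR's quasi-likelihood test and 7146 with DESeq2. Leaving out 1 library gave 5358 (without day 3 replicate 1) to 6783 (without day 3 replicate 3), and leaving out both libraries numbered 3, chosen after seeing the data, gave 6182. Tested against a 1.5-fold change, which asks for more than a difference from 0, 1809 genes passed. The difference between lines passed for 438 genes with the replicate block and for 511 with DESeq2, against 81 here, 73 with edgeR and 121 with a pseudocount of 10; the cause was not tested. Single libraries were not left out for that difference. With the replicate block 7861 genes changed. Same-numbered samples of the 2 days correlated in their deviations at 0.138, 0.0814 and 0.214. Day 3 replicate 2 correlated better with day 5 replicate 1 (0.124), while the other different-numbered pairs ran from -0.223 to -0.0405. The numbers were not taken as pairs in the main fit, and whether they mark a shared culture or harvest was not tested. Of 337 named genes that changed, none turned direction under any of these settings, and 304 kept their calls without each single library. Many of them were named for a small adjusted p or a large change, which favours kept calls. Of all 7010 changed genes, 4657 kept their calls without each single library and without both libraries numbered 3. Among the named genes, calls lost numbered 5 and 1 with pseudocounts of 0.1 and 10, 4 with upper-quartile scaling and 5 with DESeq2. They numbered 9 in a fit of the floxed samples alone and 128 against a 1.5-fold change. Low reads limit genes near 0 at day 3, whose log2 changes shrink with a larger pseudocount.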

Other observations

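Several gene families outside the lists above moved at day 5, and all of them were picked after their values were seen, so their counts are descriptions only, to be read beside 22.9% higher and 19.6% lower over all genes. Of 17 tested noncoding RNAs of the Platr series, which were named for their expression in pluripotent cells, 11 fell and 0 rose (median log2 change -1.22). Platr10 fell from 1880.0, 1852 and 869 normalised reads at day 3 to 422, 209 and 553 at day 5 (log2 change -1.98 ± 0.43, adjusted p = 0.00239), and Platr21 from 154, 137 and 132 to 54.1, 26 and 32.3 (log2 change -1.95 ± 0.25, adjusted p = 5.99e-05). Neither overlapped between days.

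Protocadherin genes, which encode adhesion proteins, moved mostly upward. The 10 tested beta protocadherins were higher, but 9 of them reached the expression filter only through day 5, so their direction was set by the filter. In the other families, 11 of 22 gamma protocadherins rose while 0 fell, and 7 of 10 delta protocadherins rose while 2 fell. Of these, 1 gamma and 4 delta members entered only through day 5, and 3 of those delta members rose. Gamma protocadherin transcripts share their 3' exons, so reads can be split among them or left uncounted, and single members are uncertain. Pcdhb22 rose from 12.6, 8.58 and 13.6 to 92.3, 71.2 and 202 (log2 change 3.16 ± 0.35, adjusted p = 2.02e-05). The delta protocadherin Pcdh8 rose from 13.6, 22.5 and 68 to 547, 947 and 1203 (log2 change 4.90 ± 0.56, adjusted p = 2.54e-05), while Pcdh1 fell from 1716, 1879 and 1837 to 1074, 1140.4 and 934 (log2 change -0.79 ± 0.18, adjusted p = 0.00302) and Pcdh19 from 983, 919 and 947 to 696, 466 and 449.6 (log2 change -0.85 ± 0.20, adjusted p = 0.00445).

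Axon guidance families differed in how many members rose. Of 7 Robo and Slit genes 5 rose and 0 fell, of 10 plexins and neuropilins 8 rose and 0 fell, and of 8 netrins and their receptors 5 rose and 1 fell. Ephrins gave 5 rises and 0 falls among 8, ephrin receptors 6 and 3 among 13, and semaphorins 8 and 3 among 20. Of these 2, 1, 2, 0, 0 and 2 members, in the same order, entered only through day 5. Ntn1, the floor plate guidance cue netrin 1, rose from 293, 398 and 521 to 2683, 2017 and 2935 (log2 change 2.67 ± 0.18, adjusted p = 9.07e-07). Its receptor gene Unc5c rose from 8.71, 15 and 16.3 to 375, 543 and 545 (log2 change 5.11 ± 0.26, adjusted p = 2.00e-07) and the receptor gene Dcc from 2.9, 3.22 and 2.72 to 130.5, 145 and 522 (log2 change 5.77 ± 0.47, adjusted p = 2.68e-06). Every day 5 sample of these 3 genes lay above every day 3 sample.

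Aminoacyl-tRNA synthetase genes fell in 9 of 17 cases and rose in 2, by small amounts (median -0.26). Gars, which charges glycine tRNA, fell from 13446, 12822 and 11054 to 8969, 8715 and 8641 (log2 change -0.50 ± 0.08, adjusted p = 0.000465). Genes for replication-dependent histones, whose transcripts carry no poly(A) tail, gave 1 rise and 3 falls among 63.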
